A study of Aedes albopictus with 4 samples.

Results

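The genes described here encode the structural proteins of the exoskeleton that carry a number, an endocuticle name or the name resilin, in larvae of the Asian tiger mosquito, Aedes albopictus. The rule that chose them uses product names and no measured value. A gene was a member when its annotated product contained cuticle protein, cuticular protein, endocuticle structural or resilin, and none of the words larval, pupal or adult. The rule found 142 of the 25320 genes in the table. RNA from whole larvae of the fourth instar was sequenced at 72 h, in 2 libraries from larvae exposed to diquat, a bipyridyl herbicide, at 1/5 of its LC50 (the concentration that kills 50% of the animals) and in 2 libraries from larvae with no treatment. The labels give no strain, sex or number of larvae per library, and the design text calls the second library of each group a duplicate. The p-values therefore measure the spread between these libraries, which may be technical.

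The insect cuticle is a composite of chitin fibres and proteins that epidermal cells secrete in layers, with a new cuticle laid down under the old at each moult. Many cuticle proteins bind chitin through a conserved segment known as the Rebers-Riddiford consensus, and the mix of proteins sets whether a region is hard, flexible or elastic. The numbered names used here, such as 7, 8, 16.5, 19 and 21, follow proteins isolated from locust cuticle, and flexible cuticle protein 12 follows a protein of the cecropia silkmoth. Endocuticle structural glycoproteins carry names given to proteins of the inner, late-deposited cuticle of locusts. Resilin is the rubber-like protein of elastic ligaments and wing hinges in insects, and pro-resilin is its soluble precursor.

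Transcripts of these genes were widely lower with diquat. Of the 142 members, 104 averaged 10 or more normalized counts over all libraries and were tested with limma, and 85 of the 104 fell while 4 rose at an adjusted p under 0.05. Of all 17992 genes tested, 22.0% were called lower and 26.7% higher. At 2-fold or more, 61 members fell and 2 rose, beside 2.82% of all tested genes lower and 2.33% higher. The median log2 fold change of the tested members was -1.14, and that of all tested genes was -0.003. Both diquat libraries lay below both controls in 92 of the 104 members and above them in 4, beside 35.5% and 37.4% of all tested genes.

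The members together held 0.385% of the reads in diquat replicate 1 (95% Wilson interval 0.383 to 0.387) and 0.386% in diquat replicate 2 (0.385 to 0.388). The share was 0.749% in control replicate 1 (0.746 to 0.752) and 0.747% in control replicate 2 (0.744 to 0.750). These intervals cover counting error only. In normalized counts the members summed to 159591 and 159528 in the diquat libraries, against 309161 and 305880 in the controls, so that the diquat mean was 51.9% of the control mean. A permutation of 2 against 2 libraries cannot give a two-sided exact p below 0.333, so the sums are given without a test. In whole larvae, fewer epidermal cells and less RNA per cell cannot be told apart.

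Libraries held 45243090 and 48383964 reads with diquat and 34502559 and 39242657 in controls. Replicates of these genes lay close together: over the 91 members with a mean of at least 50, the median absolute log2 difference between replicates was 0.08 with diquat and 0.07 in controls. In the 13 tested members with lower means it was 0.54 and 0.51, and 4 of those 13 were called lower. The remaining 38 members were not tested. They summed to 99.0 and 71.7 normalized counts in the diquat libraries and 172 and 178 in the controls, with at most 15 reads for any of them in any library, and 2 had no read at all. Of the tested members, 4 reached a mean of 10 in controls but not with diquat, and none the other way round. LOC109404315, LOC109406485 and LOC109433671 of these are counted among the falls, and LOC109418733 did not pass.

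**Figure D1:**
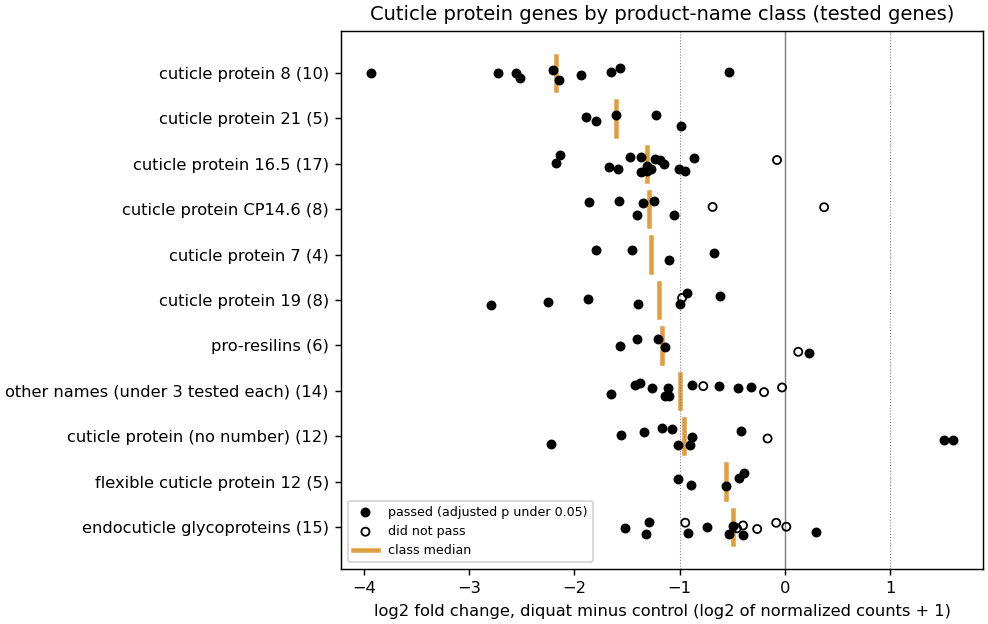
Log2 fold change (diquat minus control, on log2 of normalized counts + 1) of each of the 104 tested members, grouped by product-name class with the number tested in brackets; filled points passed an adjusted p of 0.05, open points did not, and the orange bar is the class median. Cuticle protein 8 has the lowest median (-2.18) and the endocuticle glycoproteins the highest (-0.49), and the 2 points right of the dotted line at 1 are both cuticle protein-like genes without a number.

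Classes differed in how far they fell. By the sum of all their genes, cuticle protein 8 stood at 21.2% of the control level, CP14.6 at 35.5%, cuticle protein 7 at 39.6%, cuticle protein 16.5 at 43.5% and cuticle protein 21 at 47.5%. Pro-resilins were at 49.9%, the rarer names together at 57.2% and cuticle protein 19 at 58.2%. Flexible cuticle protein 12 was at 67.8%, endocuticle glycoproteins were at 74.5% and cuticle proteins without a number at 75.1%. The sum of the unnumbered class joins falls and large rises: 9 of its 12 tested genes fell and 2 rose, with a median of -0.96. Within each class the diquat and control sums did not overlap, and the differences between classes were not tested.

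The make-up of the pool shifted with these unequal falls. Flexible cuticle protein 12 genes held 38.8% ± 0.05 of the members' summed counts with diquat and 29.7% ± 0.13 in controls (SD, n = 2 per group). Cuticle protein 8 genes held 8.21% ± 0.13 with diquat and 20.04% ± 0.05 in controls (SD, n = 2 per group). Endocuticle glycoproteins held 8.27% ± 0.06 with diquat and 5.76% ± 0.04 in controls (SD, n = 2 per group). Pro-resilins kept a like share, 9.65% ± 0.16 with diquat and 10.04% ± 0.09 in controls (SD, n = 2 per group).

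**Figure D2:**
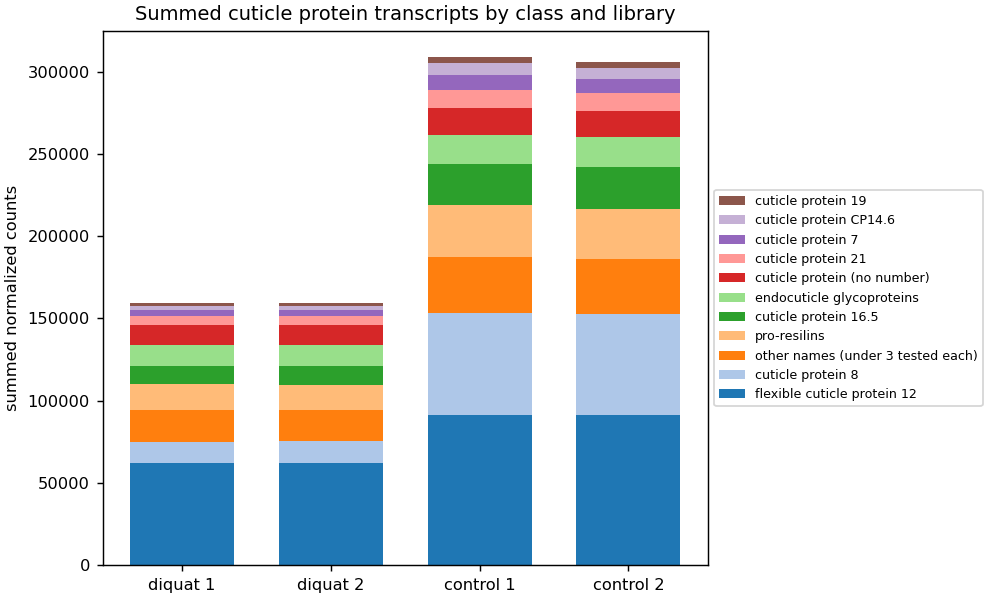
Summed normalized counts of all 142 members in each library (bars, from 0), divided by product-name class. The diquat bars end at 159591 and 159528 counts and the control bars at 309161 and 305880, and the cuticle protein 8 segment shrinks most in proportion, to 21.2% of its control level.

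Cuticle protein 8 genes fell in 10 of 10 tested, 9 of them at least 2-fold, with a class median of -2.18. LOC134287878 had 3591 and 3698 normalized counts in the diquat libraries, against 17048 and 16585 in the controls (log2 fold change -2.21 ± 0.03, SE; limma adjusted p = 9.11e-28). LOC134287876 had 2135 and 2025 normalized counts with diquat and 12280.0 and 12188 in controls (log2 fold change -2.56 ± 0.04, SE). In both genes the groups are far apart, and the diquat means were 21.7% and 17.0% of the control means. LOC134286737 had 1863 and 1770.1 with diquat and 10550.5 and 10289 in controls, at 17.4% of control. LOC134286741, which lies inside LOC134287873 in the AalbF5 annotation, had 911 and 942 with diquat and 6049.7 and 6244 in controls, at 15.1% of control. LOC134286742, inside the same gene, fell by 2.15 on the log2 scale. The deepest fall of any member was in LOC109400285, with 39.4 and 25.6 normalized counts with diquat and 519 and 484 in controls (log2 fold change -3.94 ± 0.21, SE; limma adjusted p = 1.04e-14). LOC109414720 stands outside the runs that hold the other abundant copies, and had 3052 and 3343 with diquat and 10017 and 10024 in controls (log2 fold change -1.65 ± 0.04, SE). The smallest fall of the class was that of LOC109403097, with 213 and 186 normalized counts with diquat and 263 and 313 in controls (log2 fold change -0.53). LOC109399494, named both cuticle protein 8-like and cuticle protein 19-like, is counted with the rarer names. Its log2 fold change was -0.32 (limma adjusted p = 0.0127). How any reads shared by copies of this name were divided among them is unknown. Identity between the copies was not computed. Without the cuticle protein 8 genes the other 94 tested members had a median of -1.08.

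Cuticle protein 7 genes fell in 4 of 4 tested, from -0.68 to -1.80 on the log2 scale. LOC134286747 had 1942 and 1873 normalized counts with diquat and 4235 and 3932 in controls (log2 fold change -1.10 ± 0.05, SE; limma adjusted p = 7.11e-17). It belongs to a run of 7 neighbouring cuticle genes with 6 members, 3 of the cuticle protein 8 and 3 of the cuticle protein 7 class, and the 6 fell. Within that run the cuticle protein 8 copies lay between -2.15 and -2.73 and the cuticle protein 7 copies between -1.10 and -1.80, so the groups of copies do not overlap.

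Of 17 cuticle protein 16.5 genes, all were tested and 16 fell, 14 of them at least 2-fold, with a median of -1.31. LOC109426620 had 2698 and 2607 normalized counts with diquat and 6194 and 6292 in controls (log2 fold change -1.23 ± 0.04, SE; limma adjusted p = 5.32e-20). Its neighbour in name, LOC109426621, had 1909.5 and 2126 with diquat and 5015 and 5406 in controls. Apart from LOC109418371, members of the class lay between -0.86 and -2.18. LOC134287314 was among the largest falls, with 97.1 and 62.3 with diquat and 353 and 337 in controls (log2 fold change -2.13 ± 0.19, SE). LOC109418371, inside the UDP-glucosyltransferase gene LOC109418392, did not pass, with 19.2 and 19.6 normalized counts with diquat and 28.7 and 14.6 in controls.

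Cuticle protein 21 genes fell in 5 of 5 tested. LOC109409014 had 4661 and 4505 normalized counts with diquat and 9118 and 9004 in controls (log2 fold change -0.98 ± 0.03, SE; limma adjusted p = 1.38e-19), and it gave 83.1% of the class's counts. It lies inside LOC109409011 in AalbF5. The other 4 stand in a run with 5 cuticle protein 16.5 genes, and the 9 tested genes of that run fell between -1.15 and -1.89.

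Cuticle protein 19 was the largest class by number of genes, and most of its genes had few reads. Of its 26 genes 8 were tested, and 7 of those fell, with a median of -1.20. Among the 7 is LOC109404315, with 0 and 5.97 normalized counts with diquat and 14.4 and 20.9 in controls. LOC115254264 gave 72.1% of the class's counts, with 1729 and 1689 with diquat and 2664 and 2567 in controls (log2 fold change -0.61 ± 0.05, SE; limma adjusted p = 5.74e-11). LOC115270371 fell to 18.3 and 17.9 with diquat, against 98.1 and 82.4 in controls (log2 fold change -2.25 ± 0.33, SE). The 18 untested copies summed to 41.2 and 28.2 normalized counts with diquat and 74.2 and 80.3 in controls. Among them are 9 genes in a run of 11 neighbouring cuticle genes, which together had 16 and 5 reads in the diquat libraries and 16 and 19 in the controls. A change in such genes was not detectable at this depth.

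CP14.6 genes, named after a tobacco hornworm protein, fell in 6 of 8 tested, each at least 2-fold, with a median of -1.30. Among the 6 is LOC109406485, which reached the count minimum through the controls. It had 5.50 and 5.12 normalized counts with diquat and 27.5 and 11.5 in controls. Under a constant variance prior, 4 of the 8 were lower, and 5999 genes were called in all, in place of 8772. LOC109420202 had 1040.0 and 967 normalized counts with diquat and 3848 and 3469 in controls (log2 fold change -1.86 ± 0.06, SE; limma adjusted p = 6.7e-20). LOC109420602 had 848 and 862 with diquat and 1852 and 1712 in controls. In both the groups are apart by more than the spread of the replicates. A further 6 copies were under the count minimum, with at most 12 reads in a library.

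Flexible cuticle protein 12 genes, of a name given to soft cuticle, held the most counts of any class and stood at 67.8% of control as a sum. LOC109399209 had 31628 and 31530.2 normalized counts with diquat and 41258 and 41383 in controls (log2 fold change -0.39 ± 0.02, SE; limma adjusted p = 2.42e-17). LOC109413965 had 20496 and 20650.0 with diquat and 30479 and 30385 in controls (log2 fold change -0.56 ± 0.02, SE). LOC109413968 had 9439 and 9456 with diquat and 19302 and 18820.3 in controls (log2 fold change -1.01 ± 0.02, SE). All 5 tested genes of the class fell, 1 of them at least 2-fold, and the replicates of each of these 3 genes differ far less than the groups. Counts are per gene and not per length, so the order of classes by counts is not an order of transcript numbers.

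**Figure D3:**
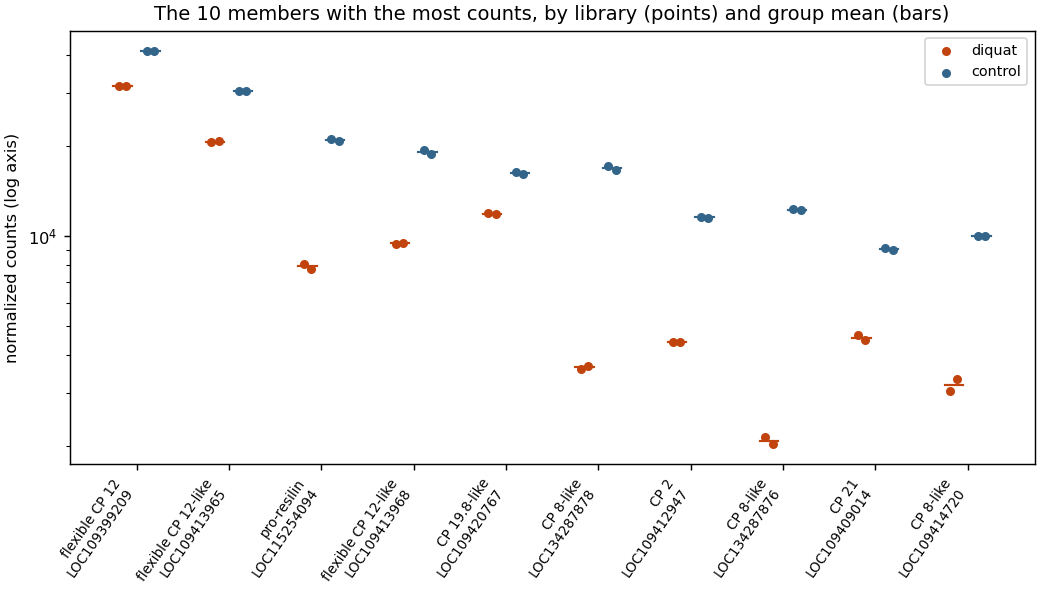
Normalized counts (log axis) of the 10 members with the most counts, with a point for each library, a bar for each group mean and diquat to the left of control for each gene. The diquat points lie below the control points in each of the 10 genes, by little in flexible cuticle protein 12 (LOC109399209, 76.4% of control) and by much in cuticle protein 8-like (LOC134287876, 17.0% of control).

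Pro-resilins went both ways. LOC115254094, the pro-resilin with the most counts, had 8076 and 7756 normalized counts with diquat and 21113 and 20707 in controls (log2 fold change -1.40 ± 0.02, SE; limma adjusted p = 4.01e-25). LOC115267748 had 1114 and 1067 with diquat and 2545 and 2475 in controls, and LOC109428906 had 851 and 871 with diquat and 1927 and 1861 in controls. LOC109429597 had 379 and 399 with diquat and 1086 and 1229 in controls (log2 fold change -1.57 ± 0.09, SE). These 4 genes stand at 33.6% to 45.5% of their control means, with no overlap between the groups. LOC109427336 had 5088 and 5076 normalized counts with diquat and 4482 and 4194 in controls, a small rise (log2 fold change 0.23 ± 0.04, SE; limma adjusted p = 9.31e-06). It partly overlaps the neurofibromin gene LOC109427334, whose log2 fold change was 0.28, and its call was lost with a constant variance prior (limma adjusted p = 0.0758). The pro-resilin-like gene LOC134285005, inside LOC134285003, had 75.1 and 57.2 with diquat and 76.5 and 47.0 in controls and did not pass. LOC109404299 had 4.17 normalized counts in control replicate 2 and none in the other 3 libraries.

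Endocuticle glycoproteins had the class median nearest to 0. Of 18 genes 15 were tested, 8 fell and 1 rose, and 3 of the falls were at least 2-fold, with a median of -0.49. LOC109419882, an SgAbd-2 gene, had 419.7 and 414 normalized counts with diquat and 1208 and 1192 in controls (log2 fold change -1.52 ± 0.08, SE; limma adjusted p = 1.01e-14). The SgAbd-8-like gene LOC109419859 had 498 and 641 with diquat and 1385 and 1433 in controls (log2 fold change -1.32 ± 0.09, SE). The SgAbd-5-like gene LOC109399171 had 936 and 869.7 with diquat and 2214 in each control (log2 fold change -1.29 ± 0.06, SE). In these 3 genes the diquat libraries sit at 34.7% to 40.8% of the control mean. Another gene of the SgAbd-5 name, LOC109399160, rose, with 4778 and 4842 with diquat and 3908 and 3939.8 in controls (log2 fold change 0.29 ± 0.04, SE; limma adjusted p = 1.11e-07). The ABD-5-like gene LOC109399161 had 3916 and 3911 with diquat and 5057 and 5239 in controls (log2 fold change -0.40 ± 0.04, SE). These abundant genes thus differ in direction, each by more than its replicate spread. LOC109406699 (SgAbd-5) also fell, with a log2 fold change of -0.49, and so did 2 SgAbd-2 genes that lie inside other genes, LOC109416192 (-0.74) and LOC109412349 (-0.93).

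The remaining endocuticle genes had low counts or small differences. LOC109420610 (SgAbd-2) had 107 and 83.6 with diquat and 135 and 139.8 in controls, and its call (limma adjusted p = 0.0349) was lost in 7 of the alternatives, with an adjusted p of up to 0.265 without diquat replicate 2. LOC109398683 (SgAbd-5) had 268 and 255 with diquat and 275 and 279.6 in controls and did not pass. LOC109420605 (ABD-4) had 69.6 and 65.7 with diquat and 82.5 and 80.3 in controls and did not pass either. The log2 fold changes of LOC109622389, LOC109420609, LOC134287967 and LOC109418733, with means under 50, lay between 0.01 and -0.95 and did not pass. LOC109413995, LOC109419850 and LOC109418736 were under the count minimum.

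**Figure D4:**
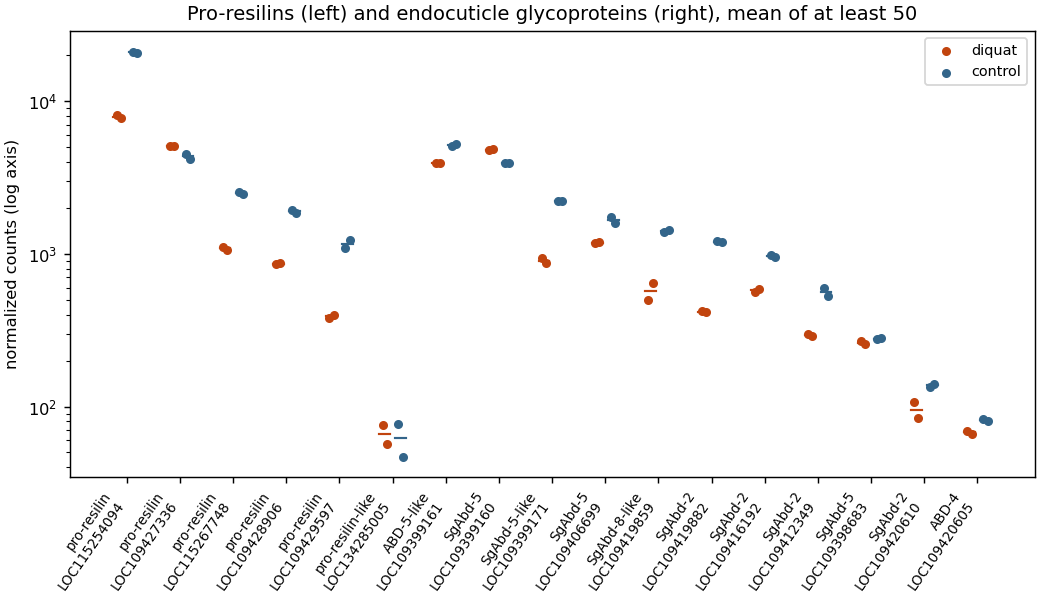
Normalized counts (log axis) of the pro-resilins (left 6) and endocuticle glycoproteins (right 11) with a mean of at least 50, with a point for each library, a bar for each group mean and diquat to the left of control. The diquat points lie above the control points in pro-resilin LOC109427336 and in SgAbd-5 LOC109399160, overlap them in pro-resilin-like LOC134285005, and lie below them in the others.

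The genes named cuticle protein with no number held the 2 largest rises of any member. LOC109411057 had 1748 and 1835 normalized counts with diquat and 578 and 602 in controls (log2 fold change 1.60 ± 0.07, SE; limma adjusted p = 1.08e-16). LOC109398582 had 3295 and 3349 with diquat and 1098 and 1241 in controls (log2 fold change 1.51 ± 0.06, SE; limma adjusted p = 5.04e-18). Both stand near 3 times the control level, at 303.7% and 284.1%, with no overlap between groups. They are the first of 5 members in a run of 8 neighbouring cuticle genes, and the other 3 fell, with log2 fold changes of -0.42 (LOC115268685), -1.56 (LOC109411041) and -1.34 (LOC109398584). LOC109411041 had 360.1 and 405 normalized counts with diquat and 1149 and 1101 in controls.

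That run and a further pair of members, 7 genes in all, lie inside LOC109411053, annotated as papilin, a matrix protein. The pair, LOC115264164 and LOC109398594, fell. LOC115264164 had 3115 and 3153 normalized counts with diquat and 5930.1 and 5811 in controls (log2 fold change -0.91 ± 0.04, SE). The papilin gene itself had 41545 and 41707 with diquat and 68169 and 68074 in controls, and the genes nested in it, cuticle genes of other names included, sum to 96.6% of its mean. Inside papilin 5 members were thus lower and 2 higher. Outside papilin, 9 genes of the unnumbered name were recorded, of which 5 were tested. LOC109414739, with 53.1 and 61.5 with diquat and 78.9 and 52.2 in controls, was the one among them that did not pass.

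**Figure D5:**
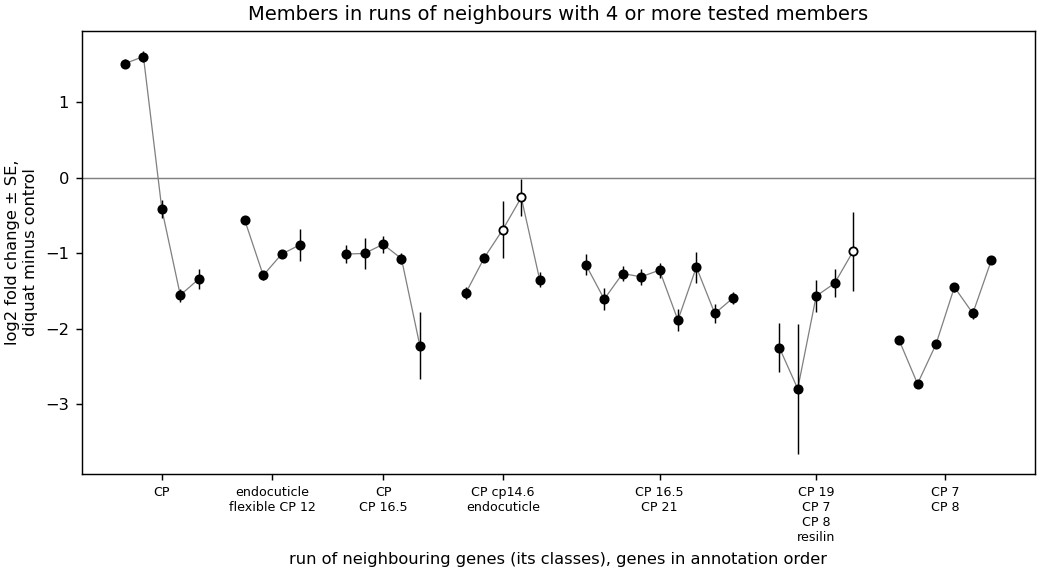
Log2 fold change ± SE (diquat minus control) of tested members in each run of neighbouring cuticle genes with 4 or more tested members, in annotation order; filled points passed an adjusted p of 0.05, open points did not, and the labels name the classes in each run (CP, cuticle protein). The run at the left is the one inside papilin, where 2 genes are above 1.5 and 3 below 0, while in the other runs no point lies above 0.

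Neighbourhood was shared by many members. In AalbF5 the 142 genes lay in 66 runs of cuticle genes with no other protein-coding gene between them, 33 of which are a gene on its own, and 13 runs held 3 or more members, 75 genes together. Of the tested members, 24 overlapped another gene, 22 of them by lying inside it, and none held a nested gene. With overlapping genes left out, 69 of 80 tested members fell and 1 rose. The molecular function term structural constituent of cuticle was given to 23 members, of which 14 were tested and 13 fell. By abundance, 32 of 36 members with a mean of at least 1000 fell and 4 rose, and 49 of 55 members with a mean of 50 to 1000 fell and none rose, with medians of -1.14 and -1.23.

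Some members with rarer names also fell. Cuticle protein 2 (LOC109412947) had 4447 and 4428 normalized counts with diquat and 11610.2 and 11499 in controls (log2 fold change -1.38 ± 0.03, SE; limma adjusted p = 2.02e-23). Cuticle protein 19.8-like (LOC109420767) had 11908 and 11803 with diquat and 16329 and 16029 in controls (log2 fold change -0.45 ± 0.02, SE). The groups are apart in both, with a fall in cuticle protein 2 to 38.4% and in cuticle protein 19.8-like to 73.3% of the control mean. Of the 14 tested genes with rarer names 11 fell and none rose. Cuticle protein 21.3 (LOC109408966, inside LOC134284823), with 132 and 149 with diquat and 144 and 142 in controls, had the most counts of the 3 that did not pass.

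Cuticle genes named for a stage were also mostly lower. Of 34 tested larval cuticle protein genes 26 fell and 1 rose (median log2 fold change -1.22), and of 22 tested adult cuticle protein genes 20 fell and none rose (median -1.20). Of 14 tested pupal cuticle protein genes 10 fell and 2 rose (median -0.48), and 1 rose without diquat replicate 2 or without control replicate 1. Summed over genes, larval names stood at 46.3% of control, adult names at 49.7% and pupal names at 81.3%, beside 51.9% for the members. Whether the members differ from them was not tested.

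Other genes of cuticle formation were counted by their roles in chitin, tanning and moulting. Among all tested genes 22.0% were lower and 26.7% higher, and 2.82% and 2.33% at 2-fold or more. Of 40 tested chitin genes, of names tied to making, modifying, degrading or binding chitin, 14 fell and 12 rose, with a median of -0.08. At least 2-fold, 3 of them fell and 2 rose, and the highest log2 fold change was 1.69. Those of smallest p were obstructor-E genes, which encode chitin-binding proteins of the cuticle matrix. LOC115257151 had 10887 and 11063 normalized counts with diquat and 22018 and 21684 in controls (log2 fold change -0.99 ± 0.02, SE). LOC109431569, of the same name, fell by 1.52 on the log2 scale. Of 23 tested tanning genes, which harden and colour the cuticle, 11 fell and 2 rose (1 without diquat replicate 1), with a median of -0.14. The tanning list includes phenoloxidases, and the same genes are counted among the haemocyte markers below. Tyrosine 3-monooxygenase (LOC109413955), which starts the catecholamine path, had 5884 and 5892 with diquat and 10029 and 9978 in controls (log2 fold change -0.76 ± 0.03, SE). Of 21 tested moult regulators 14 fell and none rose, with a median of -0.30, but 9 fell without diquat replicate 1 and 8 with a constant variance prior. With that prior 5999 genes were called in all, in place of 8772. The moult list also took in LOC109422828, a sex determination protein (fruitless) by name, which gave 18.9% of the list's counts. The nuclear receptors FTZ-F1 (LOC109404941) and HR3 (LOC109417772), which act in the moulting hormone cascade, fell, with log2 fold changes of -0.55 and -0.46. With the trend on genomic span removed, 8 moult regulators were lower and 2 higher, with a median of -0.11.

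Markers of tissues were counted too, and their part in the lower cuticle transcripts was not tested. Their counts stand beside 22.0% lower and 26.7% higher among all tested genes. Of 3 genes taken as epidermal markers, grainyhead and the chs-2 and chs-2-like chitin synthase genes, 3 were lower. Grainyhead was also counted among the moult regulators, and the chitin synthases among the chitin genes. Chitin synthases also act in the insect midgut, and the names do not tell in which tissue these are used. The 3 genes' sum, with 11178 and 11014 normalized counts with diquat and 13716 and 13771 in controls, did not overlap between groups. With a constant variance prior, under which 5999 genes were called in all in place of 8772, 1 of the 3 was lower. With the span trend removed none of the 3 was called. Summed muscle markers lay at 987054 to 990784 normalized counts with diquat and 774825 to 778490 in controls (17 higher and 15 lower of 50 tested). Subunits of the proton pump, taken as Malpighian tubule markers, lay at 247109 to 247481 with diquat and 194080 to 194397 in controls (19 higher and none lower of 21). Their names do not tell in which tissue they are used. Midgut markers lay at 459676 to 463436 with diquat and 483520 to 489870 in controls (39 higher and 21 lower of 90), and 5 midgut markers had no read. By name, the midgut list also took in neurotrypsin, antichymotrypsin-2 and chymotrypsin inhibitors.

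Fat body markers summed to 88.8% of control (2 higher and 4 lower of 9, with 1 higher without diquat replicate 1, diquat replicate 2 or control replicate 1), neuronal markers to 87.0% (3 higher and 13 lower of 20, CUGBP Elav-like genes among them) and haemocyte markers to 72.5% (3 higher and 6 lower of 13). The haemocyte sum includes papilin, and the genes nested in papilin sum to 96.6% of its mean. Phenoloxidases of the haemocyte list are also in the tanning list. The ovary list, which also took in chorion peroxidases, had 3 higher and 3 lower of 17, with none higher without diquat replicate 2. Opsins, which larval eyes express too, had 7 higher and 1 lower of 11, with 4 higher without either diquat replicate in turn and none lower without diquat replicate 1.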

How the data were processed

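RNA of 4 libraries, 2 from diquat-exposed and 2 from untreated whole larvae, was measured. The authors deposited a normalized signal per gene and library. Every value was a whole multiple of the smallest value above 0 in its library (100% of values, tolerance 1e-06 relative to the multiple), so whole reads were recovered by division. The tools listed in the submitters' processing notes are STAR 2.7.10a, bcl2fastq, DRAGEN and fastp 0.12.4, without their roles. Counter, build, annotation, strand setting and normalization method were not given in the sources used here.

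Genes with a mean of at least 10 were tested for diquat minus control with limma 3.58.1 (R 4.3.3; lmFit, eBayes with mean trend). The two-sided test used log2(value + 1), and p-values were adjusted by Benjamini-Hochberg over 17992 genes, with a threshold of 0.05. This scale understates the change of low genes. Classes are product names without isoform and -like suffixes, and those with 3 or more tested genes are described each. All 25320 identifiers were found in the AalbF5 gene table, used for neighbours, overlap and span, since the authors' build is not known.

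Members and lists were chosen with earlier results of these data known. Members named are the 10 with the highest mean, the 8 largest falls and rises past the threshold with a mean of at least 50 and groups apart, the most abundant of each class, all endocuticle and resilin genes and the 5 most abundant that did not pass. Others were named after their values were seen (LOC109403097, LOC109399494, LOC109418371, LOC109426621, LOC109420602 and the genes inside papilin). From each other list at most 3 genes of smallest p were eligible.

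Alternatives were other pseudocounts (0.5 and 5), filters, scalings and variance priors, leaving out each library, a replicate block, edgeR 4.0.16 and DESeq2 1.42.0 on recovered reads (8829 and 7223 genes called, beside 8772), no overlapping genes, and removal of the trend on genomic span (loess, span 0.3). Counts were simulated with the means and depths of these libraries (17992 genes, 17746 tested). In them limma found 47 of the 49 genes with a 4-fold change and 35 of the 49 with a 2-fold change. It found 28 of the 49 with a 1.5-fold change and 18 of the 49 with a 1.25-fold change, beside 2 false calls. The simulation changed only these few genes, where 48.8% were called in the data, and set the variance at a fixed multiple of the mean. Recovery and false calls depend on both, so these rates need not hold for the data. Figures used Python 3.11.15 with matplotlib 3.10.9.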

Additional observations from a re-analysis of the deposited data

How the results depend on the processing

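The 85 genes of the reported test included 85 of 85 called by edgeR and 81 of 81 called by DESeq2. They included 83 of 85 called with no filter and 79 of 81 called with a constant variance prior. LOC109418733 passed with that prior (limma adjusted p = 0.0303). The count of members called lower lay between 69 (no overlapping genes, 80 members tested) and 85 under the 17 alternatives. With each library left out in turn it was 79 to 81, and the median log2 fold change of the members was -1.17 to -1.10. That median moved by more than the spread between replicates (SD 0.02) without control replicate 1 (-1.10) or control replicate 2 (-1.17). It also did so with no filter (-1.01), a mean of at least 50 (-1.17), quantile normalization (-1.17), removal of the span trend (-1.20) and no overlapping genes (-1.23). The median was negative in each. Without overlapping genes, 1 member was called higher in place of 4, and 4963 genes in all were called in place of 8772, since fewer genes were tested. Among the members named by the fixed rule, direction turned in 4, which did not pass. Other members were not followed for direction. With a library left out, log2 fold changes ranged from -0.11 to 0.057 in LOC109408966, from -0.46 to 0.13 in LOC109414739, from -0.037 to 0.063 in LOC109622389 and from -0.22 to 0.47 in LOC134285005, and LOC109622389 was at -0.18 with the span trend removed. Grainyhead (LOC109406167) turned to 0.026 with the span trend removed. The cause was not tested. With the replicate number as a block, 85 members were lower, 4 higher and 9056 genes called in all. Deviations of same-numbered libraries were not correlated (r = 0.01 over 17992 genes). A pairing that left no shared deviation would give the same value, so pairing by number is not excluded. Members with means under 50 are limited by counting error. With a constant variance prior, 5999 genes were called in all, in place of 8772. Under it 9 chitin genes, 7 tanning genes and 7 neuronal markers were lower, and 3 opsins were higher. No pupal cuticle, tanning or neuronal gene was then called higher.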
